A study of Mus musculus with 6 samples.

Results

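The members described here are 43 nuclear genes that encode subunits of the mitochondrial complexes of oxidative phosphorylation, a list fixed by gene symbol and found on the arrays through the RefSeq accession of each probe. All 43 were found, 1 of them (Atp5f1, now Atp5pb) through an older symbol, and all 43 were among the 15309 genes tested. They divide into 15 members of complex I, 4 of complex II, 6 of complex III, 10 of complex IV and 8 of complex V. The kidneys were taken whole from male mice of the C57BL/6J strain, and RNA of each mouse was read on its own single-colour Agilent microarray. The knockout group held 3 mice labelled as iNampt-conditional knockouts, and the control group 3 mice labelled only as controls. The series title places the Nampt axis it studies in renal proximal tubules and names diabetic nephropathy, but the labels give no diabetes treatment, age, Cre driver or deleted exon, and they do not give the alleles that the controls carry. The RNA came from the whole organ, so cells in which Nampt may not have been deleted contribute to every value.

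Complexes I to IV form the respiratory chain of the inner mitochondrial membrane. Complex I takes electrons from NADH and returns NAD, complex II takes them from succinate, complex III passes them to cytochrome c and complex IV passes them to oxygen. Complex V, the ATP synthase, uses the proton gradient that complexes I, III and IV build. Most subunits are encoded in the nucleus and a few in mitochondrial DNA. Nampt makes the NAD precursor nicotinamide mononucleotide, and the tubules of the kidney, the proximal tubule among them, are rich in mitochondria. The comparison of knockout with control kidneys therefore asks whether transcripts of the machinery that consumes NADH differ where the NAD salvage enzyme was targeted.

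Levels are given as normalised log2 signal, the log2 of an array's processed probe intensity minus that array's 75th percentile, so that an increase of 1 is a doubling. Nampt was lower in the knockout kidneys by this measure. It lay at 1.804, 1.502 and 1.531 in knockouts 1, 2 and 3, against 2.78, 2.59 and 2.65 in controls 1, 2 and 3 (difference -1.06 ± 0.10, SE; limma adjusted p = 0.0431), a call that was lost when any array but knockout 1 was left out. No spot was saturated on any array, and 57.3% to 63.3% of spots were well above background. The 3 controls and knockout 1 lay in the first row of a single slide and knockouts 2 and 3 in the second, where the lowest signal detected above background was 29.6 and 32.2 units, against 18.5 to 20.9 units in the first row. Proximal tubule markers were present, with all 16 measured. Their summed signal was 11.51 to 11.52 (log2) in the knockouts and 11.47 to 11.59 in the controls, and 0 of the 16 passed the test. Distal convoluted tubule markers had a difference below 0 in 5 of 5 cases measured, and 4 were highest on control 3. The summed signal of that list was 4.655 to 4.97 in the knockouts and 5.02 to 5.24 in the controls, without overlap. Macrophage markers had a difference above 0 in 9 of 9 cases, at a summed signal of 6.01 to 6.19 in the knockouts and 5.57 to 5.82 in the controls, and tubular injury markers in 9 of 10, at 7.05 to 7.14 in the knockouts and 6.85 to 7.13 in the controls. Erythroid markers summed to 8.31 to 9.27 in the knockouts and 9.12 to 9.45 in the controls. None of these marker genes passed the test, while 7 macrophage, 8 injury and 2 erythroid markers had an unadjusted p under 0.05 by limma, and their part in the members' values was not tested. The labels number the mice as separate animals, and 3 per group limit the precision.

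No member differed between knockout and control kidneys beyond the spread between mice. By limma, with Benjamini-Hochberg adjustment over all genes, 0 of 43 members passed an adjusted p of 0.05, against 26 of 15309 genes tested (0.17%). At an unadjusted p under 0.05 there were also 0 of 43, against 12.8% of all genes. The adjusted p ran from 0.418 for Ndufs4 to 0.999 for Atp5a1. The differences themselves were small. They ran from -0.12 for Ndufs4 to 0.021 for Uqcrfs1 on the log2 scale, with a median of -0.048, which is -3.29%, against a median of -0.0077 over all genes tested. In whole-kidney RNA, fewer cells of a type and less RNA per cell cannot be told apart, in either direction.

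The intervals limit how large a difference these arrays leave room for. The half-width of the 95% interval of a difference, unadjusted for the number of genes, had a median of 0.16 over the members and 0.18 over all genes. It ran from 0.12 for Atp5j to 0.26 for Ndufc2. Ndufc2 also had both the lowest and the highest bound of the 43, at -19.7% and 15.9%. For Ndufs4 the interval ran from -16.2% to 0.581%. A p above the threshold does not show equal levels, and these bounds say how far apart the 2 groups could lie.

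**Figure D1:**
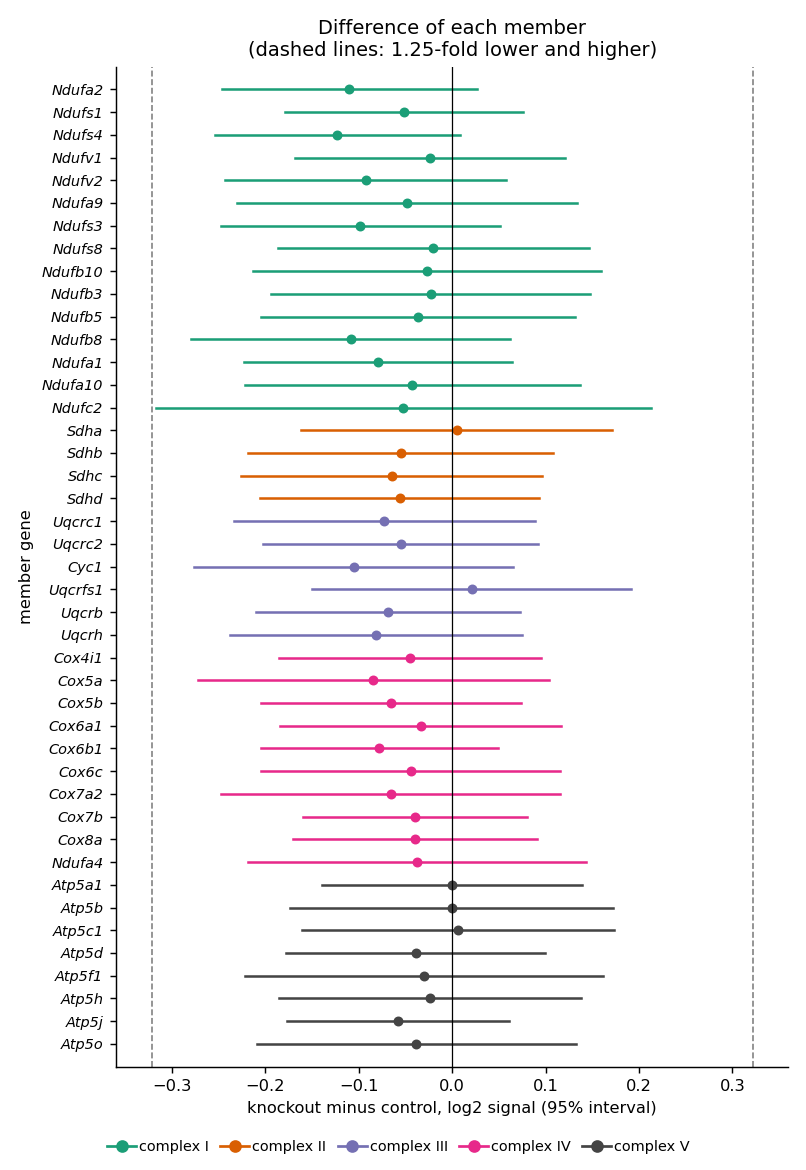
Difference of knockout minus control kidneys for each of the 43 members (log2 signal, point) with its 95% interval from limma (line), coloured by complex; dashed lines mark the same fold lower and higher, as the title gives it. All intervals cross 0 and none reaches a dashed line.

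Most members nevertheless lay slightly below 0, and with the 75th percentile scaling a single control stood apart from the other arrays. The difference was negative in 40 of 43 members, against 52.9% of all genes tested, the exceptions being Sdha, Uqcrfs1 and Atp5c1. Control 3 was the highest of the 6 arrays for 42 of the 43, against 33.2% of all genes, but for 27 with quantile normalisation, 24 with normexp and quantile normalisation and 29 when scaled on the brightest genes. Relative to the mean of the controls, the median over the members was -0.067, -0.039 and -0.055 in knockouts 1, 2 and 3, against -0.061, -0.040 and 0.11 in controls 1, 2 and 3. Controls 1 and 2 lay among the knockouts by this scaling and control 3 apart. With quantile normalisation the medians were -0.034, -0.032 and -0.034 in the knockouts, against -0.020, -0.00031 and 0.031 in the controls, so that all 3 knockouts lay below all 3 controls, as they also did in complexes I, III and IV. The median difference was then -0.035, with 37 members below 0. With normexp and quantile normalisation the groups overlapped, at -0.035, -0.025 and -0.026 in the knockouts, against -0.028, -0.0032 and 0.031 in the controls. With the 75th percentile scaling and without control 3, the median difference over the members was 0.0024, with 21 members below 0 and 22 above, and the differences ran from -0.083 for Ndufs4 to 0.083 for Uqcrfs1.

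**Figure D2:**
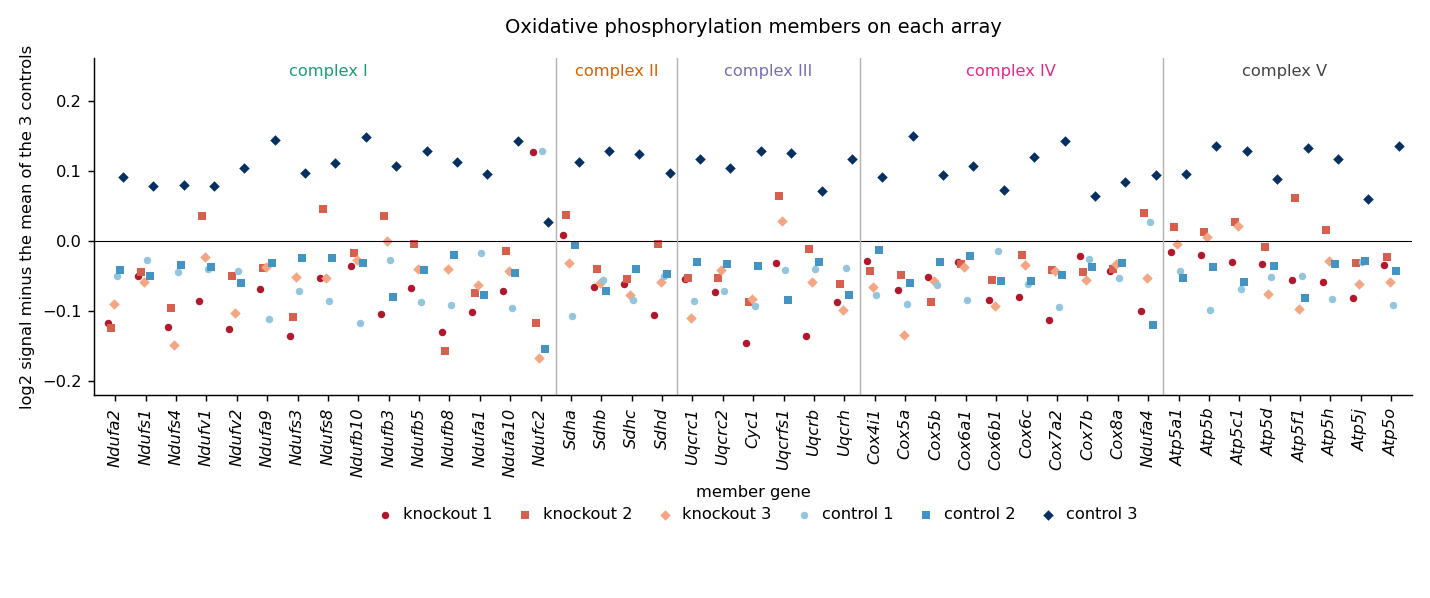
Log2 signal of each member on each array minus the mean of the 3 controls, for knockouts 1 to 3 (red tones) and controls 1 to 3 (blue tones), grouped by complex. With this 75th percentile scaling control 3 is the highest array for every member but Ndufc2. Controls 1 and 2 overlap the range of the knockouts for 36 of the 43, against 70.5% of all genes.

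With the 75th percentile scaling, other bright genes were also high on control 3. All 43 members lay in the brightest 10% of genes by mean signal. In the other 1488 genes of that group, the median deviation from the control mean was -0.041, 0.0059 and -0.024 in knockouts 1, 2 and 3, against -0.036, -0.040 and 0.078 in controls 1, 2 and 3. Scaling each array on those 1488 genes, an alternative chosen after seeing the data, left the members at -0.014, -0.046 and -0.028 in the knockouts, against -0.036, 0.0069 and 0.036 in the controls, with a median difference of -0.024 and 34 members below 0. Proximal tubule markers were likewise highest on control 3 in 11 of 16 cases, with a list median of 0.095 on that array. The erythroid list, led by the haemoglobin genes, stood at -0.16 there, and the macrophage list at -0.19. What part brightness, scaling or cell content has in the members' shift was not tested.

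By the same scaling, the members' spread was wider in the controls, where control 3 stood apart from controls 1 and 2. The median over the members was -0.061 and -0.040 in controls 1 and 2 and 0.11 in control 3. It was -0.067 to -0.039 in the knockouts. The range of the 3 knockouts was narrower than that of the 3 controls for 40 of 43 members, against 56.7% of all genes. The SD of the knockouts had a median of 0.031 over the members and that of the controls 0.10, against 0.077 and 0.089 over all genes. Cox6a1 is the clearest case, with 9.40, 9.39 and 9.39 in the knockouts, against 9.34, 9.41 and 9.53 in the controls. Its knockouts differed by less than 0.01 and its controls by far more.

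Among the 15 members of complex I, the 5 of the N module, which oxidises NADH, had the lowest median difference, -0.093. These included Ndufs4 and Ndufa2, the lowest members, while the other members of this module lay among those of the other modules. The 21 other complex I subunits, at -0.11 to 0.0026, were not divided by module. Whether the N module as a whole was lowest was therefore not tested. Module medians were not taken with quantile normalisation or the other scalings. Ndufs4, an accessory subunit whose loss causes Leigh syndrome in humans, was at 5.09, 5.12 and 5.07 in the knockouts, against 5.17, 5.18 and 5.30 in the controls. The 2 groups did not overlap, and the difference was -0.12 ± 0.054 (SE). Ndufa2, another accessory subunit of that module, was at 6.95, 6.94 and 6.98 in the knockouts, against 7.02, 7.02 and 7.16 in the controls, again without overlap (-0.11 ± 0.056; adjusted p = 0.484). Across the whole list 3 of 43 members had all knockouts below all controls, against 10.5% of all genes, and 0 of 43 had all knockouts above all controls, against 9.04% of all genes. The third was Atp5j of the ATP synthase. These shares were no higher than those of all genes.

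The catalytic subunits of the N module differed less uniformly. Ndufv1, which binds NADH and the flavin, was at 7.29, 7.41 and 7.36 in the knockouts, against 7.34, 7.34 and 7.46 in the controls (-0.024 ± 0.059). Its knockouts lay on both sides of controls 1 and 2 and below control 3. Ndufv2 and Ndufs1, which carry iron-sulfur clusters, were at -0.093 ± 0.061 and -0.052 ± 0.052. Over the 5 members of this module the median stood at -0.12, -0.050 and -0.090 in knockouts 1, 2 and 3, against -0.043, -0.042 and 0.080 in controls 1, 2 and 3. All 3 knockouts lay below all 3 controls by this median, with knockout 2 within 0.01 of controls 1 and 2.

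In the Q module, which hands electrons to ubiquinone, Ndufs3 was at 6.70, 6.73 and 6.79 in the knockouts, against 6.77, 6.82 and 6.94 in the controls (-0.098 ± 0.061), the groups overlapping in knockout 3 and control 1. Ndufs8, an iron-sulfur subunit, was at -0.021 and the accessory Ndufa9 at -0.048. The membrane arm, which pumps protons, gave -0.11 for Ndufb8, -0.037 for Ndufb5, -0.027 for Ndufb10 and -0.023 for Ndufb3 in its distal part. In its proximal part Ndufa1 was at -0.079, Ndufa10 at -0.043 and Ndufc2 at -0.053. All 15 members of complex I were below 0, none with an adjusted p under 0.418. The median difference of the complex was -0.052.

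Ndufc2 was the member that was not highest on control 3. It lay at 6.38, 6.14 and 6.09 in the knockouts, against 6.39, 6.10 and 6.28 in the controls. Knockout 1 and control 1 were the high arrays and knockouts 2 and 3 with control 2 the low ones, so the spread ran across the groups. Its SD was 0.16 in the knockouts and 0.14 in the controls, the largest of the members in each group. Within the first slide row, which leaves knockout 1 against the 3 controls, its difference was 0.13.

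Complex II, which also belongs to the tricarboxylic acid cycle, had a median difference of -0.056, with 3 of its 4 members below 0. Sdha, the flavoprotein that oxidises succinate, was at 6.27, 6.30 and 6.23 in the knockouts, against 6.15, 6.26 and 6.37 in the controls (0.0048 ± 0.068). The 3 knockouts lay inside the range of the controls. The iron-sulfur subunit Sdhb was at -0.055 ± 0.067, and the membrane anchors Sdhc and Sdhd at -0.065 ± 0.066 and -0.056 ± 0.061. Without control 3, Sdhb was at 0.0086, Sdhc at -0.0034 and Sdhd at -0.0084.

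Complex III held the highest of the 43 differences and 1 of the lower ones, in its pair of redox subunits. Uqcrfs1, the Rieske iron-sulfur protein, was at 6.43, 6.53 and 6.49 in the knockouts, against 6.42, 6.38 and 6.59 in the controls (0.021 ± 0.070). Cyc1, cytochrome c1, was at 7.15, 7.21 and 7.21 in the knockouts, against 7.20, 7.26 and 7.42 in the controls (-0.11 ± 0.070; adjusted p = 0.601). All knockouts of Uqcrfs1 lay above controls 1 and 2 and below control 3, whereas those of Cyc1 reached no higher than just above control 1. The core proteins Uqcrc1 and Uqcrc2 were at -0.073 and -0.055, and the small subunits Uqcrb and Uqcrh at -0.069 and -0.082. The difference between Uqcrfs1 and Cyc1 was not tested.

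Complex IV, cytochrome c oxidase, had the narrowest range of differences of the 5 complexes. All 10 of its members were below 0, from -0.085 for Cox5a to -0.034 for Cox6a1, with a median of -0.045. Cox4i1, the broadly expressed form of the largest nuclear subunit, was at 8.14, 8.12 and 8.10 in the knockouts, against 8.09, 8.15 and 8.26 in the controls (-0.046 ± 0.057). Cox5b was at -0.066, Cox6b1 at -0.078, Cox6c at -0.045, Cox7a2 at -0.066, Cox7b at -0.040 and Cox8a at -0.040. Ndufa4, named for complex I but found in complex IV, was at 6.48, 6.63 and 6.53 in the knockouts, against 6.61, 6.46 and 6.68 in the controls (-0.037 ± 0.074). Its groups overlapped. Counting it with complex I instead moved the median of complex IV to -0.046 and that of complex I to -0.050.

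Complex V, the ATP synthase, lay nearest to 0. Atp5a1, the alpha subunit, was at 7.78, 7.82 and 7.79 in the knockouts, against 7.75, 7.74 and 7.89 in the controls, a difference of -0.00024 ± 0.057. Atp5b, the catalytic beta subunit, was at 8.69, 8.72 and 8.72 in the knockouts, against 8.61, 8.67 and 8.85 in the controls (-0.00078 ± 0.070). For both, all 3 knockouts lay above controls 1 and 2 and below control 3. Of the central stalk, the gamma subunit Atp5c1 was at 0.0058 and the delta subunit Atp5d at -0.039. Of the peripheral stalk, Atp5o was at -0.039, Atp5f1 at -0.030, Atp5h at -0.024 and Atp5j at -0.058 ± 0.049. Atp5j had 6.47, 6.52 and 6.49 in the knockouts, against 6.52, 6.52 and 6.61 in the controls, groups that missed overlap by less than 0.01.

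Array by array, the complexes differed among themselves less than control 3 differed from the other arrays with the 75th percentile scaling. With quantile normalisation complex III minus complex V was -0.054 on knockout 1. The median over the members was then 0.031 on control 3, -0.020 and -0.00031 on controls 1 and 2, and -0.034 to -0.032 on the knockouts. That gap exceeded the distance of control 3 from controls 1 and 2, but not from the knockouts. By 75th percentile scaling the median of complex I was -0.085, -0.045 and -0.050 on knockouts 1, 2 and 3. It was -0.050, -0.042 and 0.10 on controls 1, 2 and 3. That of complex V was -0.033, 0.014 and -0.043 on the knockouts, against -0.060, -0.040 and 0.12 on the controls. The median of complex III was -0.079, -0.052 and -0.071 on the knockouts, against -0.057, -0.034 and 0.12 on the controls. A contrast between complexes on the same array removes a shift equal for all probes of that array, but not one that varies with brightness. The median of complex III minus that of complex V was -0.046, -0.066 and -0.028 in the knockouts, against 0.0035, 0.0060 and -0.0061 in the controls. The groups did not overlap in this contrast by 75th percentile scaling, quantile normalisation or normexp with quantile normalisation. The other scalings tried take 1 constant off each array, so they could not change it. Complex V was taken as the comparator after the values were seen, so the contrast is a description. The subunits of these complexes outside the members lay closer together by 75th percentile scaling. Their median difference was -0.058 for complex III with cytochrome c and -0.049 for the ATP synthase. Among the members it was -0.071 for complex III and -0.027 for complex V. The same contrast for complex I was -0.052, -0.059 and -0.0072 in the knockouts, against 0.011, -0.0018 and -0.019 in the controls, and there the groups overlapped. Of the 4 contrasts with complex V, that of complex II was the other without overlap, at -0.031, -0.037 and -0.016 in the knockouts, against -0.0099, -0.0031 and -0.0044 in the controls, and its groups overlapped with quantile normalisation. That of complex IV overlapped with the 75th percentile scaling and did not with quantile normalisation, at -0.038, -0.034 and -0.0082 in the knockouts, against -0.0041, -0.0048 and -0.0058 in the controls.

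**Figure D3:**
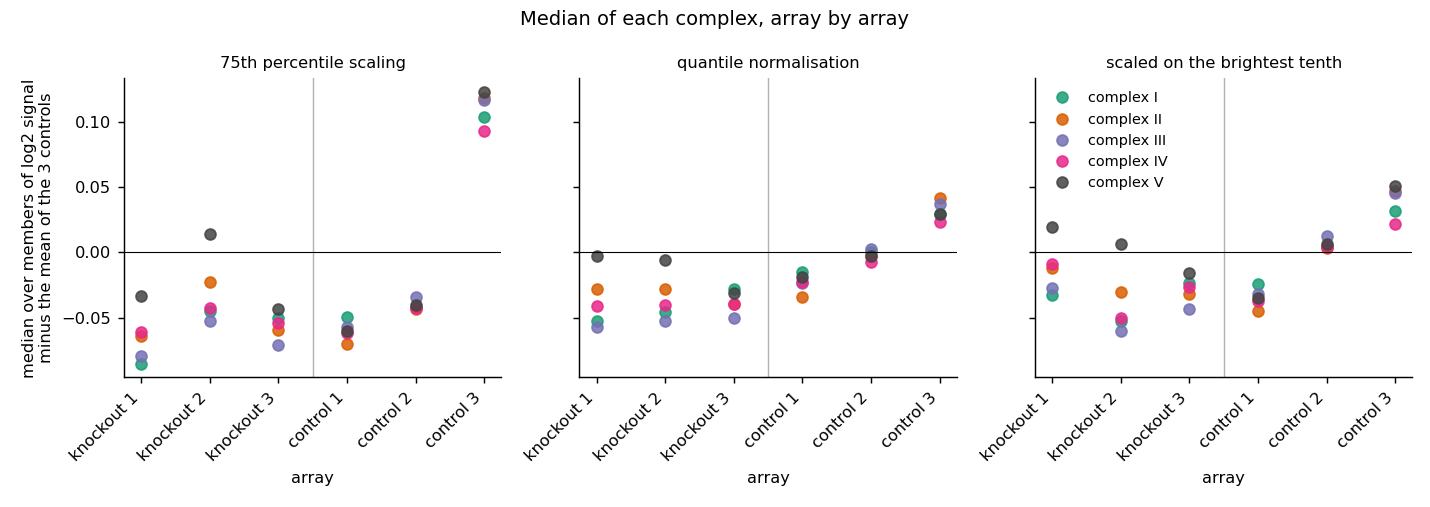
Median over the members of each complex of log2 signal minus the mean of the 3 controls, on knockouts 1 to 3 (left of the line) and controls 1 to 3 (right), under 3 scalings. Control 3 stands highest in each panel, and its distance from the other arrays is smaller with quantile normalisation or scaling on the brightest 10% of genes than with the 75th percentile.

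Probes of the same gene gave like values. The array carried 53 probes for the 43 members, all well enough detected to be tested, and 9 members had more than 1. Of the 19 probes of those 9 members 17 were below 0, and 0 of the 53 had an unadjusted p under 0.05. The 3 probes of Uqcrb were at -0.069, -0.077 and -0.092. The signs differed for Ndufb5, whose other probe was at 0.015, and for Atp5c1, whose other probe was at -0.024.

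The remaining nuclear subunits were listed by name and not by how they moved, and none of them had an unadjusted p under 0.05 by limma. Of 21 other complex I subunits 0 passed, 20 were below 0 and 20 were highest on control 3, with a median of -0.053. Of 10 other ATP synthase subunits 0 passed and 10 were below 0 (median -0.049), and of Uqcrq, Uqcr10, Uqcr11 and cytochrome c (Cycs) 0 passed, with a median of -0.058. Cycs, the electron carrier between complexes III and IV, was at 0.011 ± 0.072. Ndufb7 of complex I was at -0.11 ± 0.056 (adjusted p = 0.468) and Atp5k of the ATP synthase at -0.098 ± 0.063 (adjusted p = 0.587). Of the others of smallest p, Ndufa3 was at -0.10, Ndufb9 at -0.080 and Ndufa7 at -0.072 in complex I, Uqcr11 at -0.082, Uqcr10 at -0.070 and Uqcrq at -0.045 in complex III, and Atp5g1 at -0.089, Usmg5 at -0.077 and Atp5l at -0.070 in complex V. Subunits encoded by mitochondrial DNA were not analysed here, since no probe was matched to them.

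The other complex IV subunits, most of them forms restricted to certain tissues, spread more widely, with 1 extreme value from a single animal. Of 7 measured genes 0 passed, and the median was -0.087. Cox4i2 was at -0.12, Cox6a2 at -0.33 and the common subunit Cox7c at -0.073. Cox8b, a form used in brown fat and muscle, was at -2.48, -1.85 and 2.78 in knockouts 1, 2 and 3, against -0.78, -2.30 and 0.12 in controls 1, 2 and 3. Knockout 3 was thus far above all other arrays, and the difference of 0.47 ± 1.47 rests on it. The brown fat marker Cidea had the same order of arrays at its top, with -2.25, -1.99 and 3.31 in the knockouts, against -0.47, -2.44 and 0.51 in the controls. Ucp1, the uncoupling protein of brown fat, was at 2.86 in knockout 3 and was not well above background on 2 of the 6 arrays. It was named after its values were seen, since the filter on dim probes left it out.

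Of the 9 names on the list of brown fat and muscle, 5 were tested. The brown fat marker Elovl3 and the muscle genes Ckm and Myh4 were not well above background on any array. The summed signal of the list was 4.10 to 5.14 (log2) in the knockouts and 4.19 to 4.48 in the controls. The list of white fat markers likewise ran from 4.46 to 6.00 in the knockouts and from 5.32 to 6.09 in the controls. The 43 members had a median of -0.055 on knockout 3, between those of the other knockouts. Cox7a1, a further form enriched in muscle and brown fat, was at 4.08, 4.03 and 4.19 in the knockouts, against 4.06, 4.20 and 4.30 in the controls, and did not follow Cox8b. What part fat tissue has in any member's value was not tested.

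Factors that assemble the complexes gave a like shift with a wider spread. Of 44 measured assembly factors 0 passed (2 at an unadjusted p under 0.05 by limma), 35 were below 0 and 38 were highest on control 3, with a median of -0.046. The smallest p was that of Ndufaf4, needed to assemble complex I, at 3.002, 3.14 and 3.05 in the knockouts, against 3.26, 3.27 and 3.37 in the controls (-0.23 ± 0.060; adjusted p = 0.236). Its groups did not overlap, 1 of 5 such cases among the 44 factors, all with the knockouts lower, against 10.5% of all genes. Sdhaf2, which attaches the flavin to Sdha, was at -0.13 ± 0.045, Sco2, a copper chaperone of complex IV, at -0.15 ± 0.063, and Taco1, an activator of complex IV translation, at -0.13 ± 0.066.

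The transcriptional regulators lay on both sides of 0. Of 18 genes 0 passed (3 at an unadjusted p under 0.05 by limma), 10 were below 0 and 5 were highest on control 3, with a median of -0.0033. Ppargc1a, the coactivator PGC-1alpha, was at 3.06, 3.07 and 3.22 in the knockouts, against 2.84, 3.13 and 2.96 in the controls (0.14 ± 0.090; adjusted p = 0.597). Its groups overlapped. Tfam, which maintains and transcribes mitochondrial DNA, was at 0.076 ± 0.047, and Nrf1, nuclear respiratory factor 1, at -0.021 ± 0.053. Gabpa, a subunit of the ETS factor GABP, was at 0.077 ± 0.057 and the nuclear receptor gene Esrra at -0.078 ± 0.064.

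Other regulators lay further from 0 without passing. Esrrg, a receptor related to Esrra, was at 1.79, 1.71 and 1.87 in the knockouts, against 1.57, 1.51 and 1.59 in the controls (0.23 ± 0.060; adjusted p = 0.236). Perm1, a regulator known from muscle, was at -1.19, -1.58 and -1.46 in the knockouts, against -1.07, -0.64 and -0.84 in the controls (-0.56 ± 0.14; adjusted p = 0.236). Ppara was at 0.30 ± 0.089 (adjusted p = 0.277) and Nrip1, a corepressor, at -0.12 ± 0.057 (adjusted p = 0.465). Of the 18 regulators 3 (Esrrg, Ppara and Tfam) had all knockouts above all controls, against 9.04% of all genes. Another 3, Perm1 and Nrip1 among them, had all knockouts below all controls, against 10.5% of all genes.

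**Figure D4:**
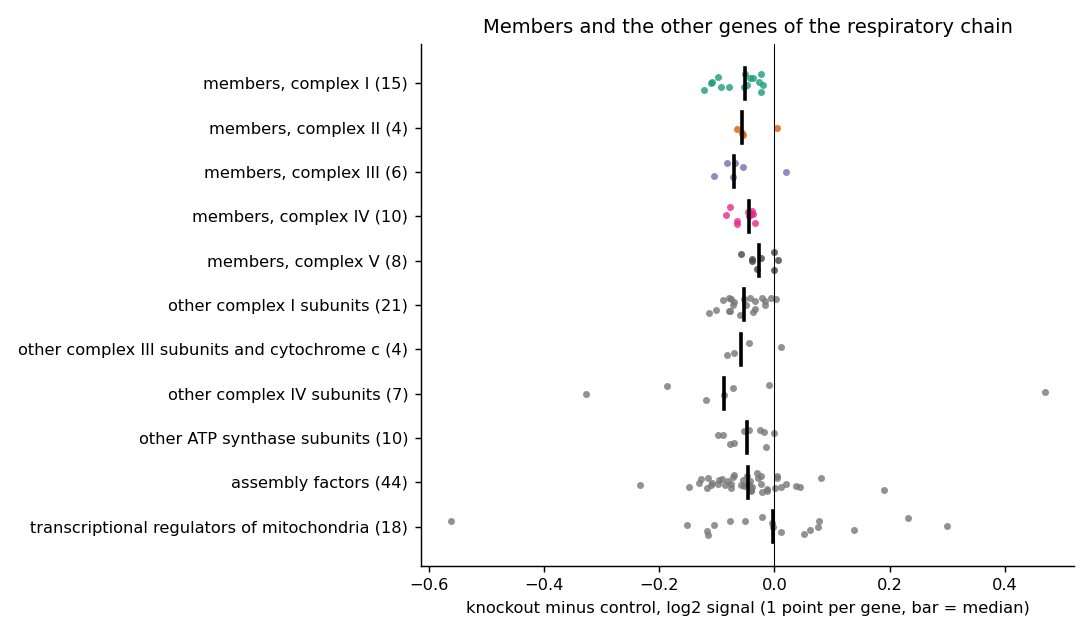
Difference of knockout minus control kidneys in log2 signal for each gene (points) and its list's median (bars), for the members by complex and for the other lists, with the number of genes in parentheses. The subunit and assembly lists have medians between -0.087 and -0.027, and that of the transcriptional regulators lies at -0.0033.

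As a feature that played no part in the choice of members, their promoters were searched for short motifs of factors known to act on respiratory genes. RefSeq promoters of GRCm38.p6, from 250 bases before to 50 after the start, were at hand for 34 of the 43 members. The letters searched on both strands were GCATGCGC for NRF1, CCGGAAG for ETS factors such as GABP, AAGATGGCG for YY1 and TNAAGGTCA for the ERR receptors, none of which contains another. The ETS letters were found in 10 of the 34 members (29.4%), against 17.1% of 12134 tested genes with a promoter and 9.93% of all 27025 genes in the table. The NRF1 letters were found in 3 members (8.82%), against 5.06% of tested genes and 3.05% of all. The YY1 letters were found in 3 members (8.82%), against 3.02% and 1.64%, and the ERR letters in 1 (2.94%), against 1.05% and 1.43%. At least 1 of the 4 was present in 13 members (38.2%), against 24.0% and 14.9%.

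These 4 stretches show such matches before the start site, 1 for each of 4 complexes, written 5′ to 3′ along the gene with the motif in capitals. Sdhb holds the NRF1 letters 54 bases before its start (chr4:140961192-140961249, plus strand), and Cox6a1 holds them 160 bases before (chr5:115349086-115349143, minus strand). Ndufs3 holds the ETS letters 27 bases before (chr2:90904722-90904773, minus strand), and Atp5j holds the YY1 letters 88 bases before (chr16:84835031-84835089, minus strand).
Sdhb: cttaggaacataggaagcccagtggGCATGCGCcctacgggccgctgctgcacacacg
Cox6a1: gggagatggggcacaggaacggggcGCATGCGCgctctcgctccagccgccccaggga
Ndufs3: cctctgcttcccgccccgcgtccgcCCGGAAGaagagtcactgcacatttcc
Atp5j: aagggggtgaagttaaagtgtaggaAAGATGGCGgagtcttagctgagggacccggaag
The differences of these 4 genes were -0.055, -0.034, -0.098 and -0.058, in the order printed, and none passed the test. The stretch of Atp5j ends in the ETS letters, left in lower case. A match is a string of letters and does not show that a factor binds there.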

How the data were processed

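The authors extracted the 1-colour (Cy3) scans with Agilent Feature Extraction 10.7.1.1, a version given by headers and processing notes alike. Per the file headers, the deposited processed intensity has had its background removed and a spatial trend taken out, array by array, with no scaling across arrays. Flags for spots well above background, saturated or outlying were used as deposited. A second deposited table gives the authors' values as a linear ratio: for 13743 to 13749 single-spot probes per array with a ratio above 1, it equalled processed signal over a constant, within 1%, in 100% of cases.

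Outlier spots were dropped, spots of a probe averaged as log2, and the 75th percentile of an array's 55681 probes was then taken off. A probe was kept where every array of either group had it well above background, and the brightest probe stood for its gene. Names came from RefSeq (GRCm38.p6), used for names and promoters only, since the probes were placed on mm9. Knockout and control were compared by limma 3.58.1 in R 4.3.3 over 15309 genes, with group as the only term, Benjamini-Hochberg adjustment and a threshold of 0.05. An exact permutation test of 3 against 3 cannot go below p = 0.1. Tables were read in Python 3.11.15 with pandas 2.3.3. The fit was tested on simulated data.

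The members and lists were chosen with earlier results of these data known. The lists other than the members held 219 names, of which 206 matched. Named besides the members were up to 4 genes of smallest p per pathway list and fixed regulators. Marker lists for other cell types were measured in the same way. The summed signals of the thick ascending limb, collecting duct, podocyte and endothelium lists overlapped between the groups. Alternatives are given in the closing section. The planned normexp alternative on mean signals was run on median signals, the column in the files.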

Additional observations from a re-analysis of the deposited data

How the results depend on the processing

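No member passed as reported or in any of 18 alternatives, and the smallest adjusted p of any was 0.2604 (Ndufs4 with array weights). At an unadjusted p under 0.05, Ndufs4 was found in 4 alternatives and Ndufa2 in 1, quantile normalisation. The 5 complex medians and the median over the members moved by less than the SD of the controls in every alternative run on them. Over the members that SD, of the control medians, was 0.092, larger than the median difference of -0.048. A move that removed the difference would also fall within it, so this bound does not show a stable shift. When 1 array was left out, the median over the members ran from -0.084 to 0.0024, and members below 0 from 21 (without control 3) to 43. The sign then turned in 23 members, 19 of them without control 3, with the differences of these members over the 6 fits running as follows: Atp5a1 -0.026 to 0.047, Atp5b -0.050 to 0.067, Atp5c1 -0.029 to 0.070, Atp5d -0.065 to 0.0046, Atp5f1 -0.076 to 0.035, Atp5h -0.065 to 0.035, Atp5o -0.084 to 0.029, Cox6a1 -0.076 to 0.020, Cox6c -0.075 to 0.015, Cox7a2 -0.11 to 0.0049, Cox8a -0.066 to 0.0024, Ndufa10 -0.091 to 0.028, Ndufa4 -0.098 to 0.0091, Ndufa9 -0.10 to 0.024, Ndufb10 -0.086 to 0.047, Ndufb3 -0.063 to 0.031, Ndufb5 -0.080 to 0.027, Ndufc2 -0.14 to 0.012, Ndufs8 -0.064 to 0.035, Ndufv1 -0.054 to 0.015, Sdha -0.049 to 0.061, Sdhb -0.091 to 0.0086, Uqcrfs1 -0.021 to 0.083. In 12 fits that left out no array, 14 members turned sign in 28 of 516 values. With quantile normalisation Atp5a1 was at 0.0020, Atp5f1 at 0.0011 and Ndufb3 at 0.0030. With normexp and quantile normalisation Atp5a1 was at 0.0062, Atp5b at 0.016, Atp5o at 0.0052, Ndufa10 at 0.0091, Ndufb3 at 0.0078, Ndufb5 at 0.0034 and Ndufv1 at 0.0039. With array weights Atp5a1 was at 0.033, Atp5b at 0.030, Atp5h at 0.0059, Atp5f1 at 0.014, Ndufa4 at 0.037, Ndufb3 at 0.041, Ndufs8 at 0.00033 and Ndufv1 at 0.011. Blocked by slide row, where knockout 1 alone meets the controls, Atp5c1 was at -0.031, Ndufc2 at 0.13 and Uqcrfs1 at -0.031, and averaged over its probes Atp5c1 was at -0.0092. Scaled on the brightest genes, Atp5a1 was at 0.024, Atp5b at 0.023, Atp5h at 0.00050, Ndufb3 at 0.0011, Ndufs8 at 0.0036 and Ndufv1 at 0.00019.

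Over all genes, 26 passed as reported. There were 11 with quantile normalisation, 77 with no filter on dim probes, 57 with a trended and robust variance, 143 with array weights, 16 blocked by slide row, 17 scaled on the brightest genes, and 0 to 57 without 1 array (0 without control 2 or 3, 1 without knockout 2 or 3, 34 without control 1, 57 without knockout 1). With the replicate number as a block 0 passed (limma; 1636 at an unadjusted p under 0.05), Nampt was at -1.06 (adjusted p = 0.0891), no member's difference changed and the median over the members stayed at -0.048. Equal replicate numbers did not mark related arrays, since deviations from the group means correlated at 0.10, -0.096 and -0.025 across genes for numbers 1, 2 and 3. The Nampt call was also lost with quantile normalisation (-1.04, adjusted p = 0.0579), blocked by slide row (-0.87, 0.0733) and scaled on the brightest genes (-1.03, 0.0659). Without 1 array Nampt ran from -1.15 to -1.003, and its adjusted p passed without knockout 1 alone (0.0209). The cause of these moves was not tested.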
